A study of Mus musculus with 8 samples.

Results

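The messenger RNAs of 10 genes of autophagy and the lysosome were followed on the mouse arrays: *Ulk1*, *Becn1*, *Map1lc3a*, *Map1lc3b*, *Gabarapl1*, *Sqstm1*, *Bnip3*, *Tfeb*, *Ctsl* and *Lamp2*. All probes that the array assigns to these 10 genes by name were taken, without regard to their signal, which gave 22 probes on 31 spots of the 56605 probes and 59305 spots that are not controls. Male C57BL/6J mice, 12 weeks old and on normal chow, received 1 intravenous injection of 100 μL of saline (Co mice, n = 4) or of the same volume with sonicated *P. gingivalis*, a bacterium of periodontal disease, at a dose that the labels print as 108 CFU, which reads as 10 to the power of 8 with the exponent mark lost (Pg mice, n = 4). The bacteria had been broken up by ultrasound beforehand. Tissue labelled as brown adipose tissue (BAT) was taken from the interscapular fat 18 h later, and the RNA of each mouse was labelled with Cy3 and hybridized to 1 Agilent one-color array. The arrays asked how gene expression in the BAT responded to a single bout of endotoxemia.

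In autophagy, a cell wraps part of its own content in a double membrane and hands it to the lysosome for digestion. The kinase ULK1 starts the process, the Beclin 1 complex makes the lipid that marks the new membrane, and ubiquitin-like proteins of the LC3 and GABARAP families are attached to it and hold the cargo through receptors such as p62. TFEB, a transcription factor, switches on many genes of autophagy and the lysosome, and in thermogenic fat autophagy is known for removing mitochondria when beige cells turn white.

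Of the 10 genes, *Tfeb*, *Ulk1* and *Becn1* had probes that were lower in Pg mice. No probe rose by limma's test, and at an unadjusted p under 0.05 there were 9 of 22 probes, all lower, against 22.8% of all probes tested in both directions and 16% lower. The 2 *Tfeb* probes in the middle of the transcript fell to 61.9% and 70.8% of the Co level, an upstream *Ulk1* probe fell to 63.0%, and the *Becn1* probe fell to 85.5%. The probes with the brightest signal for *Ulk1*, *Tfeb* and *Sqstm1* did not pass the test, and neither did any probe of *Map1lc3a*, *Map1lc3b*, *Gabarapl1*, *Bnip3*, *Ctsl* or *Lamp2*. Where a transcript had probes at 2 positions, the probe nearer its start had the lower change in each of the 5 transcripts, a pattern that most transcripts on these arrays shared.

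The probes that passed the test in *Tfeb*, *Ulk1* and *Becn1* are printed here because the calls rest on these stretches of the transcripts. Each is the sense strand of the messenger, 60 bases, as given in the array files with positions of build mm9.
Tfeb, from base 1054 of NM_011549, chr17:47926621-47926680, plus strand: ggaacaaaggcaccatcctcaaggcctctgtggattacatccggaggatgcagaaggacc
Tfeb, from base 850 of NM_001161722, chr17:47924977-47925036, plus strand: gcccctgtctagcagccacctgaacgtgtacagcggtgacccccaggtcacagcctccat
Ulk1, from base 3132 of NM_009469, chr5:111216232-111216623, minus strand: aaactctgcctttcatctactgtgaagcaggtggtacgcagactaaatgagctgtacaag
Becn1, from base 1095 of NM_019584, chr11:101151771-101152713, minus strand: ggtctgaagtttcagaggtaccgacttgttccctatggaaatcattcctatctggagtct
The *Ulk1* and *Becn1* probes each join 2 exons, since their 60 bases span 392 and 943 bases of the genome, so they read spliced RNA. The bases of both *Tfeb* probes are contiguous on the genome.

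Signals are given as log2 of the background-subtracted intensity after quantile normalization between the 8 arrays. Changes are log2 fold changes, Pg minus Co, with the standard error (SE) of limma's moderated test. The adjusted p is Benjamini-Hochberg over the 33819 probes tested, those with a signal well above background on 4 or more arrays, and a probe passed at an adjusted p under 0.1. A DEG also needed a fold change above 1.5. A probe's brightness depends on its sequence and position as well as on the amount of RNA, so signals are not compared between genes.

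All 22 probes were well above background on all 8 arrays. Of them, 4 passed the test, each lower in Pg mice, against 7.82% of all probes tested in both directions, 6% lower and 1.82% higher. The 22 probes read 10 genes, and 2 of the 4 that passed belong to *Tfeb*. With the brightest probe standing for a gene, only *Becn1* passed, against 6.25% of all genes. Of these 10 standing probes, 4 had values above 0 and 6 below, with a median change of -0.02 against -0.01 for all genes. The DEG threshold was met by 2 of the 22 probes and by 1.61% of all probes. The values of the 4 Co and 4 Pg mice did not overlap for 8 of the 22 probes and for 15.8% of all probes. The fitted change was above 0 for 6 of the 22 probes, compared with 42.3% of all probes, and the median change was -0.08 for the 22 probes and -0.04 for all. Without normalization between arrays none of the 22 passed, and with the replicate number, which is also the column of the array on the slide, as a block, none of the 22 and none of all 33819 probes did by limma. With that block 9 of the 22 probes, all lower, had an unadjusted p under 0.05, against 21.9% of all probes in both directions and 15.4% lower. The counts of calls also moved with single mice. Without Co replicate 3 no probe of the 10 genes passed, without Co replicate 2 only 1 did, and without Co replicate 4, Pg replicate 1 or Pg replicate 4 there were 2. Over all probes, 2644 passed with the 8 arrays, 2 without Co replicate 3, 216 without Co replicate 2, 720 without Co replicate 4, 630 without Pg replicate 1 and 891 without Pg replicate 4.

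**Figure D1:**
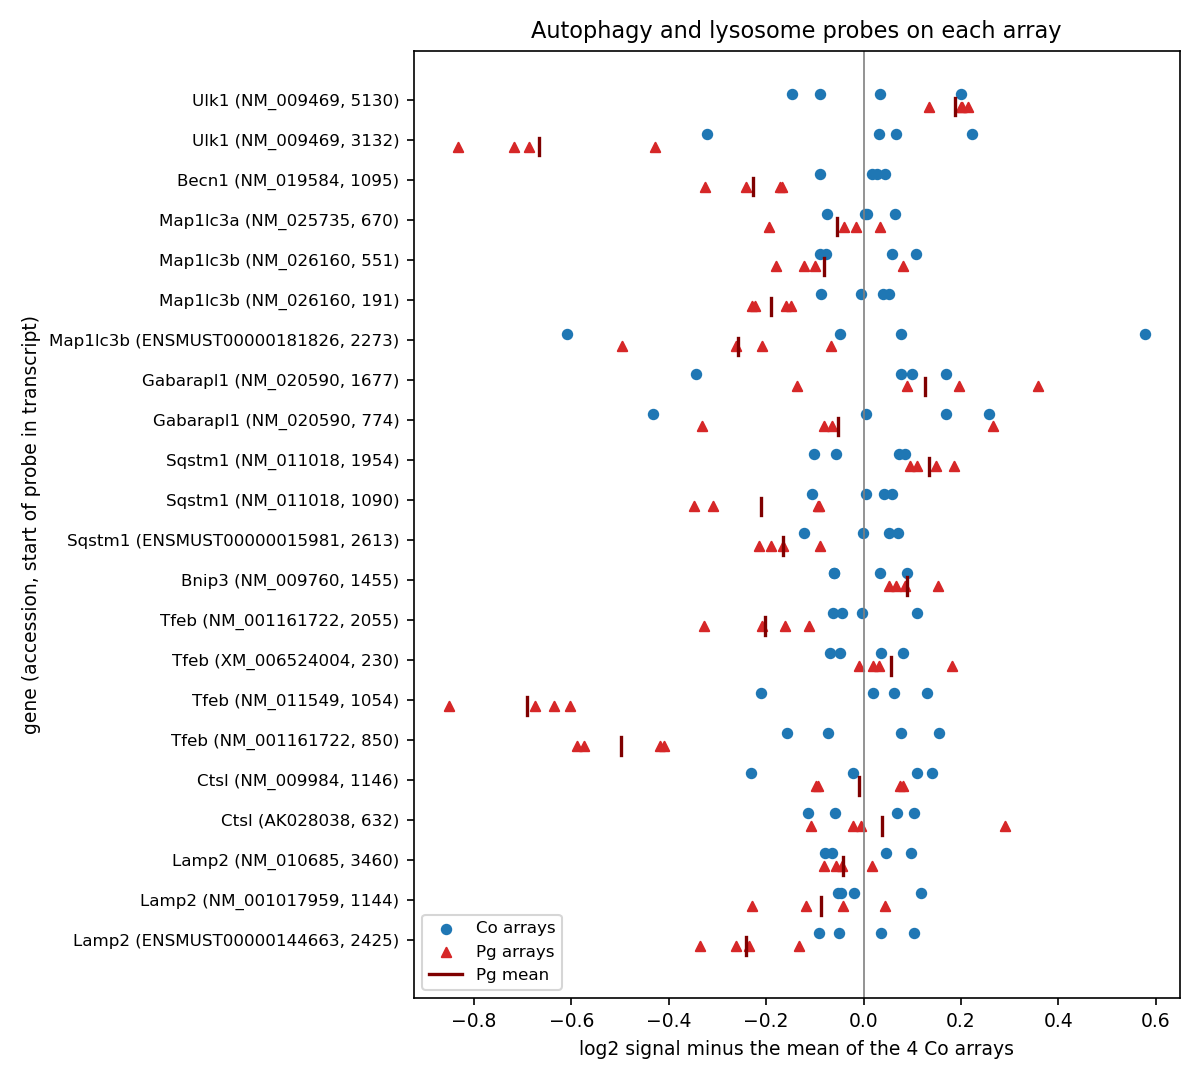
Log2 signal of the 22 probes on each array, as the difference from the mean of the 4 Co arrays of the same probe (x axis), with Co mice as circles, Pg mice as triangles and the Pg mean as a vertical bar. The 2 middle *Tfeb* probes (NM_011549, 1054 and NM_001161722, 850) and the upstream *Ulk1* probe (NM_009469, 3132) have Pg means at -0.69, -0.50 and -0.67, and the other 19 probes have Pg means from -0.26 to 0.19.

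The arrays differed between the groups as a whole. All 8 arrays came from 1 slide and 1 scan, with the Co mice in row 1 and the Pg mice in row 2, so that row and group cannot be told apart. The replicate number of a mouse is also its array's column on the slide, so that each of the 4 columns holds 1 Co and 1 Pg mouse. Probes above background numbered 34760 to 35831 in Co and 31132 to 34063 in Pg mice, and arrays correlated at 0.992 to 0.994 within Co and at 0.986 to 0.988 within Pg mice. Of the 12 brown adipocyte markers, *Ucp1*, *Elovl3*, *Slc27a2* and *Bmp8b* were not well above background on any array, although *Ucp1* and *Elovl3* define the tissue, and the other 8 were above background on all. General adipocyte markers, *Adipoq* and *Fabp4* among them, were present too, with each of the 10 detected in every mouse. The log2 of their summed signal was 17.34 to 17.43 in Co and 17.24 to 17.54 in Pg mice. Of these 10, 8 had values above 0 and 2 below, and none passed the test. All 12 skeletal muscle markers were detected in every mouse, and their median log2 signal was 17.92. The log2 of the summed signal of the muscle markers was 21.47 to 21.58 in Co and 21.47 to 21.58 in Pg mice. Quantile normalization gives each brightness rank the same value on every array. This sum, led by the top ranks, was therefore largely fixed and cannot show whether muscle RNA differed. The dimmest muscle markers varied widely, *Myh4* from 13.38 to 16.97 in Co and from 11.38 to 17.07 in Pg mice. *Actn3* ran from 11.78 to 13.65 and from 10.49 to 14.01. The macrophage markers summed to 15.14 to 15.37 and 15.07 to 15.77. Of 12, 11 were tested and none passed, with 8 above 0 and 3 below. Red cell markers, summed in the same way, ran from 17.66 to 18.37 in Co and from 16.62 to 18.41 in Pg mice, with all 5 lower in Pg mice and none past the test. Of 6 T and B cell markers tested, 3 had values above 0 and 3 below, and *Cd79b* rose by 1.69 (limma adjusted p = 0.0867). Of 7 endothelial markers, 4 had values above 0 and 3 below, and *Kdr* rose by 0.57 (limma adjusted p = 0.0573). None of 7 neutrophil markers tested passed by limma, with values of 2.16 for *S100a8* and 2.04 for *S100a9*, whose groups overlapped, and from -0.03 for *Elane* to 0.24 for *Csf3r* in the other 5. The part of these signals in the results below was not tested. In whole tissue, fewer cells of a type and less RNA per cell cannot be told apart.

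*Tfeb*, the transcription factor of the lysosomal program, was read by 4 probes. At base 1054 of NM_011549 the log2 signal was 8.06, 7.99, 7.72 and 7.95 in the 4 Co mice and 7.08, 7.25, 7.29 and 7.33 in the 4 Pg mice. Every Pg mouse was below every Co mouse. The mean fell by 0.69 (SE 0.09, n = 4 per group, limma adjusted p = 0.0398), the lowest p among the 22 probes and a DEG. At base 850 of NM_001161722 the signal was 7.60, 7.75, 7.52 and 7.83 in Co and 7.09, 7.27, 7.26 and 7.10 in Pg mice, and the groups again did not overlap. This probe fell by 0.50 (SE 0.09, limma adjusted p = 0.0504), which did not reach the DEG fold. The first probe kept its call in 7 of 8 fits that each left out 1 array and lost it without Co replicate 3, and the second kept it in 6 of 8 and lost it without Co replicate 2 or 3. With the replicate block neither passed (limma adjusted p = 0.122 and 0.123).

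The other 2 *Tfeb* probes did not pass. Toward the end of the transcript, at base 2055 of NM_001161722, the signal was 10.44, 10.48, 10.42 and 10.59 in Co mice and 10.15, 10.27, 10.32 and 10.37 in Pg mice. The groups did not overlap, and the change of -0.20 (SE 0.07) had a limma adjusted p of 0.142. This probe passed in 2 of 15 alternative fits, with normexp background correction (limma adjusted p = 0.0744) and with the median signal (limma adjusted p = 0.0908). The remaining probe, at base 230 of XM_006524004, a predicted transcript, lies upstream of the other 3 on the chromosome. Its signal was 9.20, 9.15, 9.05 and 9.07 in Co and 9.15, 9.11, 9.14 and 9.30 in Pg mice, with a change of 0.06 (SE 0.07, limma adjusted p = 0.648) and overlapping groups. From the first to the last of the 4 probes along the chromosome, the changes were 0.06, -0.50, -0.69 and -0.20.

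The profile of the *Tfeb* probe at base 1054 over the 8 arrays was set against 29222 probes above background on all arrays. The probes with the smallest root mean square distance of centred log2 values were those of ENSMUST00000181525 at 0.08, *Nos1*, neuronal nitric oxide synthase, at 0.08, *Gm35871* at 0.09, *Klf12* at 0.10 and *Gadl1* at 0.11. Their changes ran from -0.69 to -0.53. Similar falls follow from this choice, since the distance includes the difference between the groups.

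*Ulk1*, the kinase that starts autophagy, was read by 2 probes of NM_009469. At base 3132 the signal was 6.33, 6.71, 6.68 and 6.87 in Co and 5.82, 6.22, 5.96 and 5.93 in Pg mice. The groups did not overlap, although Co replicate 1 lay close to Pg replicate 2. The mean fell by 0.67 (SE 0.13, limma adjusted p = 0.0573), a DEG. At base 5130, near the end of the transcript, the signal was 13.06, 13.01, 13.19 and 13.35 in Co and 13.37, 13.35, 13.29 and 13.35 in Pg mice. The Pg values lay at the top of the Co range, and the change of 0.19 (SE 0.08) did not pass (limma adjusted p = 0.224). The call at base 3132 held in 3 of 8 fits that each left out 1 array, those without Co replicate 1, Pg replicate 2 and Pg replicate 3, and was lost with the replicate block (limma adjusted p = 0.122).

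*Becn1* encodes Beclin 1, the scaffold of the lipid kinase complex. Its only probe gave 10.36, 10.49, 10.47 and 10.46 in Co and 10.12, 10.20, 10.27 and 10.28 in Pg mice. The groups did not overlap, and the mean fell by 0.23 (SE 0.06, limma adjusted p = 0.0914). The adjusted p rose above 0.1 in each of the 8 fits without 1 array, from 0.108 without Pg replicate 3 or Co replicate 1 to 0.187 without Co replicate 2, and was 0.142 with the replicate block. By limma it was also 0.118 without the filter on dim probes and 0.235 without normalization between arrays.

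The ubiquitin-like proteins of the autophagosome had no probe that passed. *Map1lc3a*, which encodes LC3A, gave 13.90, 13.90, 13.82 and 13.96 in Co and 13.70, 13.93, 13.86 and 13.88 in Pg mice, a change of -0.05 (SE 0.07, limma adjusted p = 0.663). *Map1lc3b* encodes LC3B, the usual marker protein of autophagosomes. Its brightest probe, at base 551 of NM_026160, gave 15.03, 14.84, 14.98 and 14.83 in Co and 15.00, 14.80, 14.74 and 14.82 in Pg mice, with a change of -0.08 (limma adjusted p = 0.579). Its probe at base 191 gave 13.78, 13.72, 13.76 and 13.64 in Co and 13.58, 13.50, 13.50 and 13.57 in Pg mice. These groups did not overlap, and the change was -0.19 (SE 0.06, limma adjusted p = 0.107), just outside the threshold. It passed in 3 of 15 alternative fits, among them normexp (limma adjusted p = 0.0658) and the median signal (limma adjusted p = 0.0746). Another, dim probe on ENSMUST00000181826 ranged widely, from 5.55 to 6.74 in Co and from 5.66 to 6.09 in Pg mice, and a change of -0.26 (SE 0.23, limma adjusted p = 0.542).

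*Gabarapl1*, a relative of LC3, was read by 2 probes of NM_020590. The bright one gave 16.55, 16.52, 16.61 and 16.10 in Co and 16.80, 16.53, 16.64 and 16.31 in Pg mice, a change of 0.13 (SE 0.14, limma adjusted p = 0.634). The one nearer the start ranged from 12.37 to 13.06 in Co and from 12.47 to 13.07 in Pg mice, a change of -0.05 (SE 0.18, limma adjusted p = 0.884). On both probes replicate 4 was the lowest mouse of its group. The 95% interval of the bright probe, from 86.8% to 137% of the Co level, spans no change.

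The cargo receptors did not pass either. *Sqstm1* encodes p62, which binds ubiquitin and LC3 and is itself degraded by autophagy. At base 1954 of NM_011018 the signal was 15.90, 15.95, 16.09 and 16.08 in Co and 16.11, 16.19, 16.10 and 16.15 in Pg mice. The groups just failed to overlap, and the change was 0.13 (SE 0.06, limma adjusted p = 0.251). At base 1090 of the same transcript it was 13.11, 13.05, 13.09 and 12.94 in Co and 12.95, 12.96, 12.74 and 12.70 in Pg mice, a change of -0.21 (SE 0.08, limma adjusted p = 0.179). The probe on ENSMUST00000015981 ranged from 9.07 to 9.26 in Co and from 8.98 to 9.10 in Pg mice, a change of -0.16 (limma adjusted p = 0.176). *Bnip3*, a mitophagy receptor of the outer mitochondrial membrane, gave 17.15, 17.06, 17.21 and 17.06 in Co and 17.27, 17.20, 17.18 and 17.17 in Pg mice. Its change was 0.09 (SE 0.06, limma adjusted p = 0.407), and its sign turned to -0.0034 when arrays were scaled to the 75th percentile.

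For the lysosome itself, *Ctsl* encodes cathepsin L, a protease of the lumen. Its probe on NM_009984, spotted 10 times on each array, gave 13.86, 13.73, 13.89 and 13.52 in Co and 13.82, 13.83, 13.66 and 13.65 in Pg mice. The change was -0.01 (SE 0.10, limma adjusted p = 0.968), with a 95% interval from 85.1% to 116% of the Co level. A second probe, on AK028038, ranged from 7.54 to 7.76 in Co and from 7.55 to 7.95 in Pg mice, a change of 0.04 (limma adjusted p = 0.843). The sign of both *Ctsl* changes depended on the signal or the scaling used.

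*Lamp2* encodes a membrane protein of the lysosome that is made as several splice variants. The probe on NM_010685 gave 13.23, 13.24, 13.35 and 13.41 in Co and 13.26, 13.33, 13.23 and 13.25 in Pg mice, a change of -0.04 (limma adjusted p = 0.722) whose sign turned with normexp and with the median signal. The probe on NM_001017959, another variant, gave 11.20, 11.03, 11.06 and 11.03 in Co and 10.85, 11.12, 11.04 and 10.96 in Pg mice, a change of -0.09 (limma adjusted p = 0.533). The groups overlapped on both. The remaining probe, on ENSMUST00000144663, gave 9.43, 9.55, 9.47 and 9.62 in Co and 9.18, 9.26, 9.38 and 9.28 in Pg mice. It was lower in every Pg mouse, with a change of -0.24 (SE 0.07) and a limma adjusted p of 0.103. This probe passed in 3 of 16 alternative fits, among them normexp (limma adjusted p = 0.0572).

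**Figure D2:**
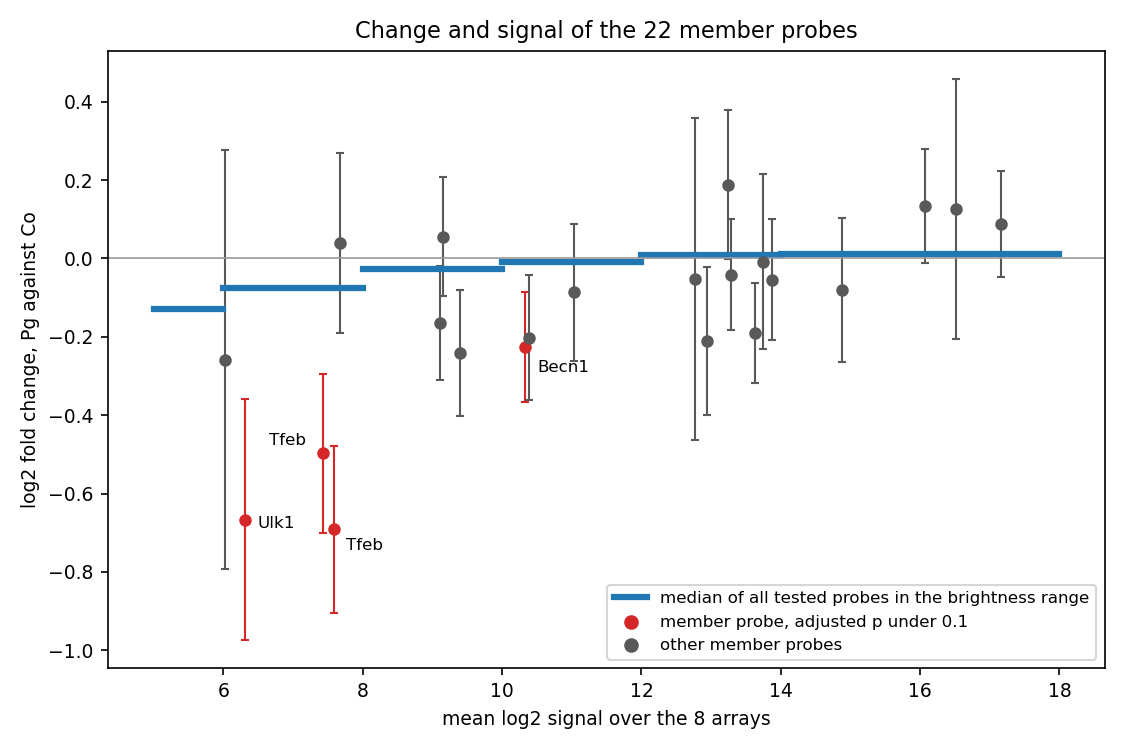
Log2 fold change with its 95% interval (y axis) against the mean log2 signal over the 8 arrays (x axis) for the 22 probes, with the 4 that passed the test named, and the median change of all tested probes in 6 ranges of signal as horizontal bars. The 3 probes with the largest falls have signals under 8, and the medians of all probes run from -0.13 in the dimmest range to 0.01 in the brightest.

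For 3 of 5 transcripts, a pair of probes of the same transcript changed unequally. Position along the transcript was examined after the values had been seen. Among the 10 genes, 5 transcripts had tested probes at 2 positions, and the difference between the upstream and the downstream probe was taken within each array. For *Ulk1* this difference was -6.50 ± 0.18 in Co and -7.36 ± 0.18 in Pg mice (SD, n = 4), so that it changed by -0.85 (SE 0.12, limma adjusted p = 0.0161). For *Tfeb* the difference between bases 850 and 2055 changed by -0.30 (SE 0.08, limma adjusted p = 0.0439), and for *Sqstm1* by -0.35 (SE 0.10, limma adjusted p = 0.0539). In all 3 the values of Co and Pg mice did not overlap. *Gabarapl1* changed by -0.18 (limma adjusted p = 0.133) and *Map1lc3b* by -0.11 (limma adjusted p = 0.260), with overlapping groups. *Ulk1* passed in each fit without 1 array, whereas *Tfeb* did not pass without Co replicate 2 (limma adjusted p = 0.101) and *Sqstm1* did not without Co replicate 2, Co replicate 3 or Pg replicate 4 (limma adjusted p up to 0.120). The *Tfeb* difference was -0.10 with normexp (limma adjusted p = 0.348), -0.13 with the median signal (limma adjusted p = 0.297) and -0.21 under scaling to the 75th percentile (limma adjusted p = 0.142).

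The same test over all 4667 transcripts with at least 2 tested probes passed for 24.2%, of which 1007 had the lower change upstream and 124 the higher. In all 1131 transcripts passed, compared with 685 without Co replicate 2 and 667 without Co replicate 3. In 70.5% of the 4667 transcripts the upstream probe had the lower change, with a median difference of -0.12, and in 85.6% the upstream probe was also the dimmer one. Where the upstream probe was brighter, in 670 transcripts, it had the lower change in 43.7%. The middle 90% of the differences lay between -0.58 and 0.34, which leaves *Ulk1* outside and *Tfeb* and *Sqstm1* inside. Labelling with this kit starts at the poly(A) tail. The motif AATAAA, the poly(A) signal, was searched for on the sense strand of each probe and is held by 10.6% of the probes tested. These probes had a median change of 0.03 against -0.05 in the rest, and they were also brighter, with a median log2 signal of 9.28 against 7.97. The part of brightness in this difference was not tested. Among the 22, the *Ulk1* probe at base 5130 and the *Sqstm1* probe at base 1954 hold it, and both had changes above 0. The part of probe position and brightness in the *Tfeb*, *Ulk1* and *Becn1* results was not tested.

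**Figure D3:**
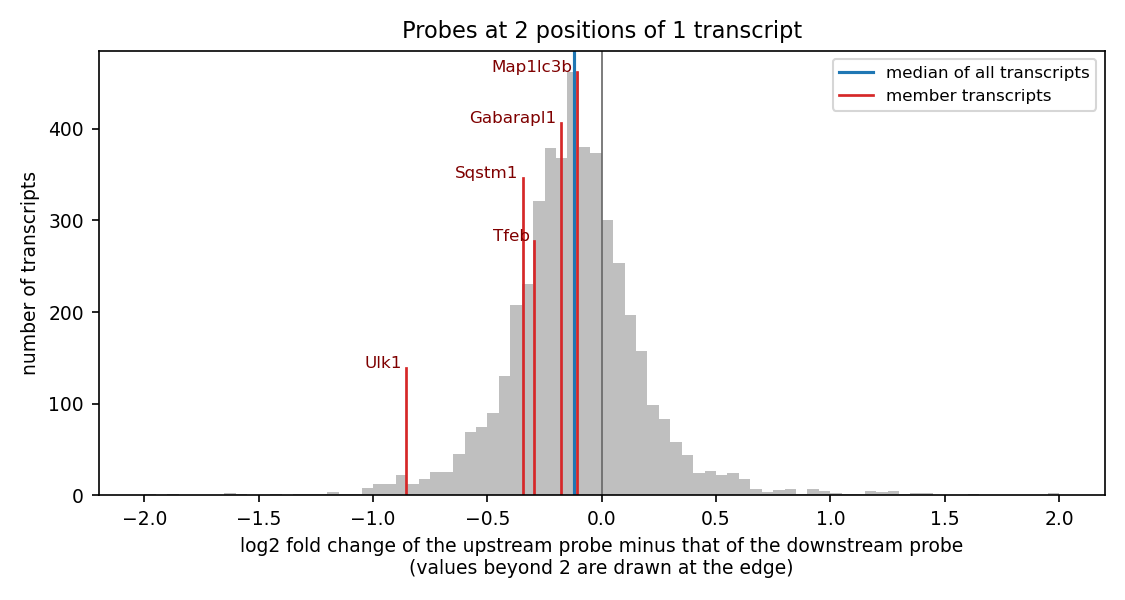
Difference between the log2 fold change of the upstream and the downstream probe of a transcript (x axis) for 4667 transcripts (grey, number of transcripts on the y axis), with their median as a blue line and the 5 transcripts of the autophagy genes as red lines, whose heights only separate the names. All 5 lie below 0, with *Ulk1* at -0.85.

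The choice of signal also moved the sizes. With normexp background correction and an offset, the fall of the *Ulk1* probe at base 3132 was 0.38 in place of 0.67, and that of the *Tfeb* probe at base 850 was 0.32 in place of 0.50. Both still passed at an adjusted p under 0.1 (limma adjusted p = 0.0357 and 0.0458). The *Tfeb* probe at base 1054 fell by 0.56 and passed (limma adjusted p = 0.0264), and none of the 3 then met the DEG fold. In the authors' deposited values, each accession has 1 entry that is the mean of its probes, which puts both *Ulk1* positions into 1 value. Refitted here, that *Ulk1* entry changed by -0.12 (limma adjusted p = 0.380), the *Tfeb* entry of NM_011549 by -0.63 (limma adjusted p = 0.0457), the *Tfeb* entry of NM_001161722 by -0.29 (limma adjusted p = 0.0692) and the *Becn1* entry by -0.22 (limma adjusted p = 0.0946).

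Around the 10 genes, 144 other genes of autophagy and the lysosome were listed by role, with the brightest probe standing for a gene. All but *Tfec* could be tested. Of the 143, 75 had a higher and 68 a lower fitted value in Pg mice, with a median change of 0.01. Over all 22454 genes, each by its brightest probe, 47.1% had a fitted value above 0 and 52.9% below, and the counts of signs by list below are read against these shares. The test was passed by 1 gene that rose and 6 that fell, which is 4.90% compared with 6.25% of all genes, of which 2.06% rose and 4.19% fell. None of the 7 met the DEG fold, and none passed with the replicate block. At an unadjusted p under 0.05 there were 27, or 18.9% compared with 20.3% of all genes, and 20 of them were lower, or 14% compared with 12.3%. Over every probe of the 143 genes, 17 of 267 passed, or 6.37% compared with 7.82% of all probes. They belonged to 16 genes, of which 9 passed only on a probe other than the brightest. These 9, named after their values were seen, were *Prkaa2*, *Tmem41b*, *Vmp1*, *Bnip3l*, *Fkbp8*, *Pink1*, *Foxo1* and *Ctsa*, each lower on that probe, and *Ctsh*, higher on it. Counts by list below are for the brightest probe unless another probe is named. Leaving out 1 array gave 5 genes without Pg replicate 3, 2 without Co replicate 4 or Pg replicate 4, 1 without Co replicate 1, Co replicate 2, Pg replicate 1 or Pg replicate 2, and 0 without Co replicate 3.

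Upstream of the autophagosome, the 15 genes of induction and the ULK1 complex had none past the test and 3 at an unadjusted p under 0.05, with changes of the brightest probe from -0.37 for *Ddit4*, an inhibitor of mTORC1, to 0.18 for *Mlst8*, an mTORC1 subunit (limma adjusted p = 0.504 and 0.132). Another probe of *Prkaa2*, a catalytic subunit of AMPK, fell by 0.63 (SE 0.08, limma adjusted p = 0.0398), past the DEG fold. In the nucleation list, *Zfyve1*, which encodes the omegasome protein DFCP1, rose from a mean of 10.29 to 10.58 (limma adjusted p = 0.0789), and *Wipi2*, a lipid-binding protein that recruits the LC3 conjugation machinery, fell from 9.76 to 9.52 (limma adjusted p = 0.0808). No other gene of that list had an unadjusted p under 0.05. Among 12 genes of the LC3 and GABARAP family and their conjugation enzymes, 10 had values above 0, none passed and 2 had an unadjusted p under 0.05. *Atg4b*, the protease that trims LC3, had the highest at 0.26 (limma adjusted p = 0.101), and *Atg10*, a conjugating enzyme, the lowest at -0.21 (limma adjusted p = 0.108).

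*Nbr1*, a cargo receptor related to p62, had the lowest p of the listed genes on the brightest probe. Its log2 signal was 9.40, 9.40, 9.32 and 9.30 in Co and 8.98, 8.96, 8.99 and 8.90 in Pg mice, so that the groups lay far apart relative to their spread. It fell by 0.40 (SE 0.05, limma adjusted p = 0.0398), and its other 2 probes did not pass, 1 of them with a value above 0. The other 13 cargo receptor and mitophagy genes did not pass on their brightest probe, with *Wdfy3* highest at 0.16. Of all 14, 5 had an unadjusted p under 0.05 and 4 of these were lower, against 20.3% of all genes and 12.3% lower. Other probes fell by 0.33 for *Bnip3l*, a mitophagy receptor related to *Bnip3*, by 0.28 for *Pink1*, a kinase that marks damaged mitochondria, and by 0.32 for *Fkbp8* (limma adjusted p = 0.0665, 0.0628 and 0.0573). Among 14 genes of autophagosome fusion, 10 had values below 0, and *Vps41*, a subunit of the HOPS tether, fell by 0.26 (limma adjusted p = 0.0750) and *Epg5*, another tether, by 0.22 (limma adjusted p = 0.0940), with *Vps16* highest at 0.12. In this list 4 had an unadjusted p under 0.05, all lower.

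In the list of MiT/TFE and FoxO factors and their regulators, *Foxo3*, an activator of autophagy genes, gave 9.77, 9.61, 9.60 and 9.58 in Co and 9.35, 9.40, 9.39 and 9.30 in Pg mice. The groups did not overlap, and it fell by 0.28 (SE 0.06, limma adjusted p = 0.0636), with 2 of its 3 probes past the test. *Foxo1* had the lowest value on the brightest probe, -0.38, with a wide spread (limma adjusted p = 0.324), and its other probe fell by 0.66 (SE 0.18, limma adjusted p = 0.0880), past the DEG fold. *Mitf*, a relative of *Tfeb*, had the highest value, 0.12 (limma adjusted p = 0.316). Of the 9 genes tested in this list, 3 had an unadjusted p under 0.05, all lower.

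The lysosome lists had 1 gene past the test on its brightest probe, *Atp6ap1*, an accessory subunit of the proton pump, which fell by 0.28 (limma adjusted p = 0.0740). The highest of the 16 pump genes was *Atp6ap2* at 0.13, and 2 of the 16 had an unadjusted p under 0.05, each lower. None of 16 lysosomal membrane genes and none of 31 hydrolases and cofactors passed by limma on the brightest probe, and each list had 3 at an unadjusted p under 0.05. On other probes, *Ctsa* fell by 0.52 and *Ctsh* rose by 0.44 (limma adjusted p = 0.0696 and 0.0867), and no membrane gene passed on any probe. The membrane genes ran from -0.18 for *Laptm4a* to 0.24 for *Laptm4b*. Of the hydrolase list, 18 had values above 0 and 13 below, and its extremes spread widely between mice. *Grn*, the progranulin gene, was at -1.14 (SE 0.40, limma adjusted p = 0.149), and *Ctss*, a cathepsin of antigen-presenting cells, at 0.62 (SE 0.43, limma adjusted p = 0.433).

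**Figure D4:**
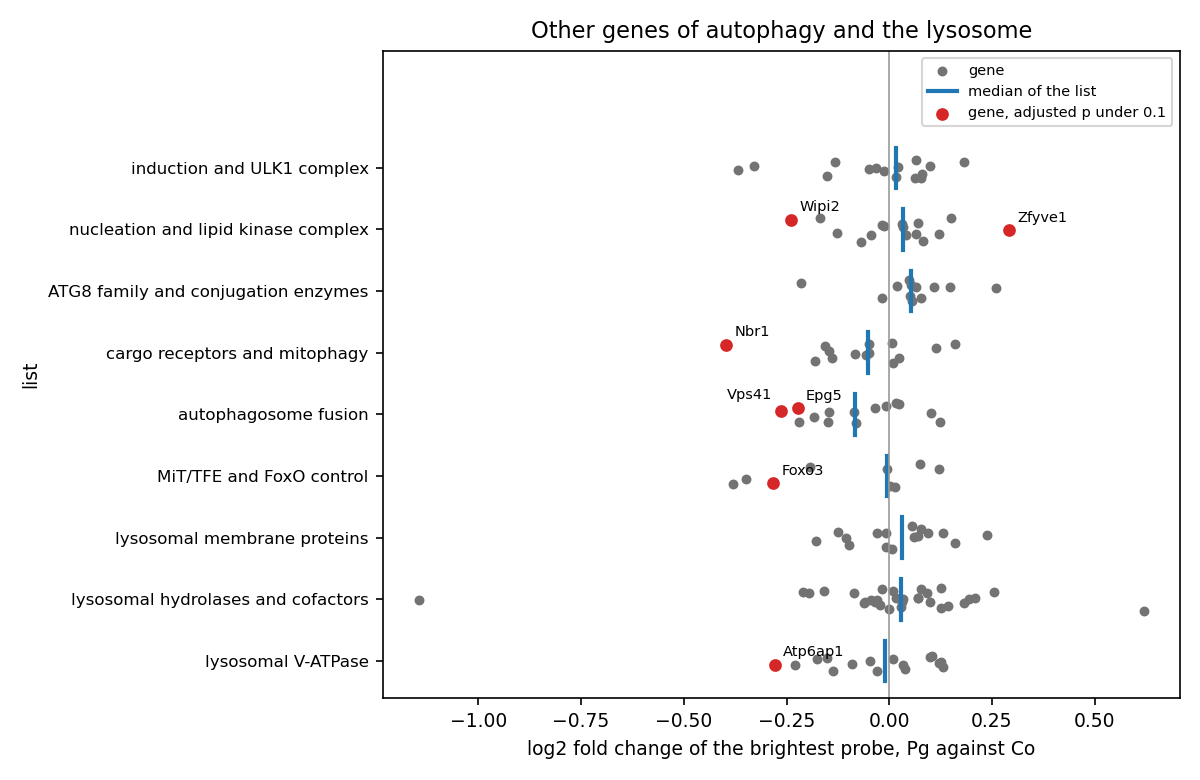
Log2 fold change of 143 other autophagy and lysosome genes in 9 lists (x axis, brightest probe of each gene), with the median of each list as a blue bar and the 7 genes past the test in red. The list medians lie between -0.08 and 0.05, and the lysosomal membrane and hydrolase lists have no red point.

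TFEB binds the CLEAR element, whose core is CACGTG. This palindrome, which reads the same on both strands, was searched for in RefSeq promoters of GRCm38.p6, from 250 bases before to 50 bases after the start. Of the 10 genes, 8 had a promoter, and *Bnip3* and *Ctsl* hold the motif. It occurs in 22.7% of 119 listed genes with a promoter and in 8.09% of all 27025 genes. By list it was held by 5 of 13 membrane genes, 4 of 11 pump genes, 8 of 25 hydrolases, 3 of 10 genes of the LC3 family and conjugation, 3 of 15 of nucleation, 2 of 11 of fusion, 1 of 9 MiT/TFE and FoxO factors and regulators, 1 of 14 of induction and 0 of 11 cargo receptors and mitophagy genes. *Becn1* and *Map1lc3a* were not matched. These 2 promoters are shown as the ones that hold the motif, in capitals, beside the *Tfeb* result.
Bnip3, chr7:138909457-138909756, minus strand: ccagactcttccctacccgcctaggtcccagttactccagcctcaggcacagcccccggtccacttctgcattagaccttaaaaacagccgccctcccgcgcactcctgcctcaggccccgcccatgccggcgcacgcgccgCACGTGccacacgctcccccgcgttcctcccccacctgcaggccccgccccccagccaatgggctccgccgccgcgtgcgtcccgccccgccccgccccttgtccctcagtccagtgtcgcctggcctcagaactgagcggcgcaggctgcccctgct
Ctsl, chr13:64370471-64370770, minus strand: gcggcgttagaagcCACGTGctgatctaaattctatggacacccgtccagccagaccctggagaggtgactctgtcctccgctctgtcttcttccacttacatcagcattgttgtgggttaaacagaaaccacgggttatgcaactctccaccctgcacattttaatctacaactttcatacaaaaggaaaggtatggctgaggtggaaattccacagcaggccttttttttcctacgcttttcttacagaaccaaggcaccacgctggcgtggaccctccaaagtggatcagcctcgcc
The motif starts 108 bases before the start in *Bnip3* and 236 in *Ctsl*, whose changes were 0.09 and -0.01. Of the 27 tested list genes with the motif, 17 had values above 0 and 10 below, with a median change of 0.02, none past the test and 1 at an unadjusted p under 0.05. Of the 91 with a promoter and no motif, 41 had values above 0 and 50 below, with a median of -0.02, 6 past the test and 23 at an unadjusted p under 0.05, where all genes had 20.3%.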

How the data were processed

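For 4 Co and 4 Pg mice, the authors deposited Feature Extraction 11.0.1.1 output with the Cy3 intensity of every spot, background-subtracted and without normalization between arrays. They also deposited a table of quantile-normalized log2 values of 28067 accessions, refitted here as an alternative. Its fold changes, p-values, q-values and other columns of the authors' own comparison were not used.

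The processed intensities of a probe's spots were averaged without population outliers, quantile-normalized, raised to at least 1 and log2-transformed. Probes well above background (on at least 0.5 of their spots) on 4 or more arrays were tested with lmFit and eBayes of limma 3.58.1 in R 4.3.3. The test was two-sided, with Benjamini-Hochberg adjustment. It was also run on simulated data with independent noise for each probe. Such data hold no differences between whole arrays or slide rows, so that run cannot vouch for the calls made here. Both DEG thresholds follow the study's methods. The difference between 2 probes of a transcript was fitted the same way over all such transcripts, and was added after seeing the data. With 70 splits of 8 mice, the smallest exact permutation p is 0.0286. Precision is limited by how many arrays there are, and p-values measure the spread between these mice.

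All probes of the 10 genes are reported, and the brightest stands for a gene. Of each list, the genes past the test and those with the highest and lowest change are named, besides 9 named after their values were seen. For the probe with the lowest p, the 5 nearest profiles are named. The genes and lists were chosen with earlier results of these data known. Alternatives were scaling to the 75th percentile, no normalization, normexp with an offset of 50, the median signal, other filters on dim probes, the replicate number as a block and leaving out each array. Proteins and probes' exon positions in newer builds were not used here.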

Additional observations from a re-analysis of the deposited data

How the results depend on the processing

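With the 8 arrays, 4 probes of the 10 genes passed, 2 were DEGs, 6 had values above 0 and the median change was -0.08. In all, 2644 probes passed, 546 were DEGs and 7 listed genes passed. Without normalization between arrays these were 0 and 0 for the 10 genes, 29 and 27 for all probes and 0 for the lists, with 20 of the 29 higher in Pg mice compared with 616 of 2644. Scaling to the 75th percentile gave 1 DEG among the 10 genes, a median of -0.12, 1546 probes passed and 283 DEGs. Normexp gave 7 probes and 0 DEGs of the 10 genes, 3452 probes and 94 DEGs in all and 11 listed genes. The median signal gave 0 DEGs of the 10 genes and 108 in all. Without the filter on dim probes 1269 probes and 2 listed genes passed, and with probes above background on all 8 arrays there were 318 DEGs. The authors' deposited values, with 17 entries for the 10 genes, gave 1 DEG, 3 values above 0, 1715 entries passed and 106 DEGs.

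Leaving out each array gave 0 to 4 probes passed, 0 to 2 DEGs, 5 to 8 values above 0 and medians from -0.146 to -0.059 for the 10 genes. Over all probes it gave 2 to 2414 passed and 2 to 692 DEGs, and 0 to 5 listed genes. Of the transcripts with 2 probes, 3 of 5 passed among the 10 genes (1 to 3 without 1 array) and 1131 in all (667 to 1021), with 753 under scaling to the 75th percentile or without normalization.

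The mice share replicate numbers, which are also the columns of the arrays on the slide. Deviations of same-numbered mice from their group means correlated at 0.06, -0.03, -0.07 and 0.18 for replicates 1 to 4. For Co replicates 1 and 4 the closest Pg mouse was the same-numbered one, and for 2 and 3 it was another. The numbers were not taken as pairs in the main fit. With the replicate block, 0 probes passed for the 10 genes, 0 for all probes and 0 for the lists, with 0 DEGs in each, while 3 of the 5 transcript differences and 906 of all still passed.

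Values near 0 changed sign. *Bnip3* went to -0.0034 under scaling to the 75th percentile. *Ctsl* on NM_009984 went to 0.016 without normalization and ranged from -0.084 to 0.039 without 1 array. On AK028038 it went to -0.016 with normexp, -0.018 with the median signal and -0.024 in the authors' values, and ranged from -0.046 to 0.088 without 1 array. *Lamp2* on NM_010685 went to 0.0061 with normexp and 0.0015 with the median signal. *Gabarapl1* at base 774 ranged from -0.198 to 0.039 without 1 array. The causes were not tested. Of 417 values of single probes and differences under an alternative, 361 kept direction and call, 33 lost the call, 8 gained it and 15 changed sign. All 22 probes were above background on every array, so none of these values is a bound.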
